A study of Monodelphis domestica and Mus musculus with 26 samples.

Results

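The cells described here were round spermatids of the gray short-tailed opossum (Monodelphis domestica), a marsupial, taken from 3 single-cell libraries of dissociated whole adult testis. They were chosen by their counts. A droplet barcode was kept with at least 1000 counts and 500 genes. It was taken as a round spermatid when MGLL, CYP2U1 and MAP7D2 together reached 1.5 counts, DGKG, BNC1, DPP4 and ARFIP1 together reached 1.5 counts, and PRM1, GPR161, MSMP, PKHD1L1 and YIPF5 together stayed below 0.5% of the cell's counts. The rule selected 344 of 21747 kept cells. All other kept cells of the same library served as the comparison, and genes are given in counts per 1e6 counts (CPM) of the summed cells of a library.

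The series compared spermatogenesis in mouse and opossum and carried no genetic or drug treatment. Beside the 3 opossum single-cell libraries, 3 libraries of adult mouse testis are used below, of which replicates 1 and 2 were labelled C57BL6/J and replicate 3 named no strain. Bulk RNA of whole opossum testis came from animals of 1 month (2 libraries), 2 months (4), 3 months (4) and 4 months (3) and from adults (7), without a stated strain. The labels do not say whether replicates were separate animals, so p-values below measure the spread between these samples only.

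Round spermatids are the haploid cells that follow the second meiotic division. They build the acrosome over the nucleus and begin the flagellum, and they transcribe many genes that later stages translate from stored messenger RNA. Elongating spermatids then form the manchette, replace histones with transition proteins and protamines, and shut transcription down.

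The rule found 95 of 5572 kept cells in replicate 1, 147 of 8126 in replicate 2 and 102 of 8049 in replicate 3. These are 1.70% (95% exact Clopper-Pearson interval 1.38 to 2.08, counting error only), 1.81% (1.53 to 2.12) and 1.27% (1.03 to 1.54) of the kept cells, with a mean of 1.59% ± 0.287 (SD, n = 3). The cells were deeper than the rest, with median counts of 4641, 3677 and 2543 per cell against 1966, 2313 and 1617. When each kept cell was thinned to 1000 counts, 9, 33 and 24 cells met the rule, and the share of selected cells therefore depends on depth. The sums weight deep cells: the 5 deepest held 33.5%, 14.9% and 18.8% of the counts of the selected cells. The 24, 67 and 39 cells with late genes at 0.25 to 0.5% held 41.4%, 64.2% and 44.2%. In replicate 2 the selected cells below 0.25% held TMEM95 (a leading gene, below) at 136 CPM in place of 81.2, and SYCP1 of meiotic prophase at 146 CPM in place of 78.7. No barcode was shared between the selected cells of different libraries. Of the selected cells, 11, 19 and 23 were among the 8% of kept cells with the highest doublet scores.

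The limit on late genes left out many cells. Without it, 151, 519 and 412 cells carried both positive sets, and the 0.5% limit on the late genes left out 56, 372 and 310 of them. Those 738 cells had median counts of 4198, 21534 and 12656. Cells just below the limit, at 0.25 to 0.5%, held PRM1 at 436, 960 and 1304 CPM, and cells just above it, at 0.5 to 1%, held 3148, 2957 and 3298 CPM, a step that the limit itself fixes because PRM1 is one of its genes. TMEM95, described below, was at 49.3, 50.4 and 53.3 CPM just inside and 5.89, 23.0 and 5.92 CPM just outside, and the 30 leading genes at 9107, 7797 and 10484 CPM inside and 5345, 6579 and 3723 CPM outside. At the edge of the first set, the leading genes stood at 11082, 8964 and 13408 CPM with 1.5 to 2.5 counts and at 7726, 6294 and 9591 CPM in the cells left out with 0.5 to 1.5 counts. At the edge of the second set they stood at 1227, 4254 and 3511 CPM inside and 591, 1153 and 2046 CPM outside. In all, 2106 kept cells outside the rule (252, 976 and 878) had at least 0.2% of their counts in the leading genes.

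The selected cells were not uniform. The 30 leading genes took a median of 1.29%, 1.52% and 1.26% of the counts of a selected cell, but in 48 of 344 cells (20, 16 and 12) they took less than 0.2%. These 48 cells carried genes of other cell types. STAR, the cholesterol carrier of steroid-producing cells, stood at 709, 602 and 626 CPM in them, against 17.5, 113 and 62.7 CPM in the other selected cells. The endothelial list stood at 1528, 438 and 51.8 CPM, against 24.1, 4.13 and 35.5 CPM. FLT1, a VEGF receptor of endothelial cells, reached 887, 231 and 23.2 CPM in the same cells. By a second measure, 80 selected cells (27, 22 and 31) had at least 0.1% of their counts in 5 lists of somatic cell markers (Sertoli, Leydig, peritubular and stromal, endothelial, immune), and 43 cells met both conditions. Part of the selected cells thus carried markers that go against the label, and key results are also given for the 264 cells (68, 125 and 71) with under 0.1% somatic counts, a division made after the values were seen.

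**Figure D1:**
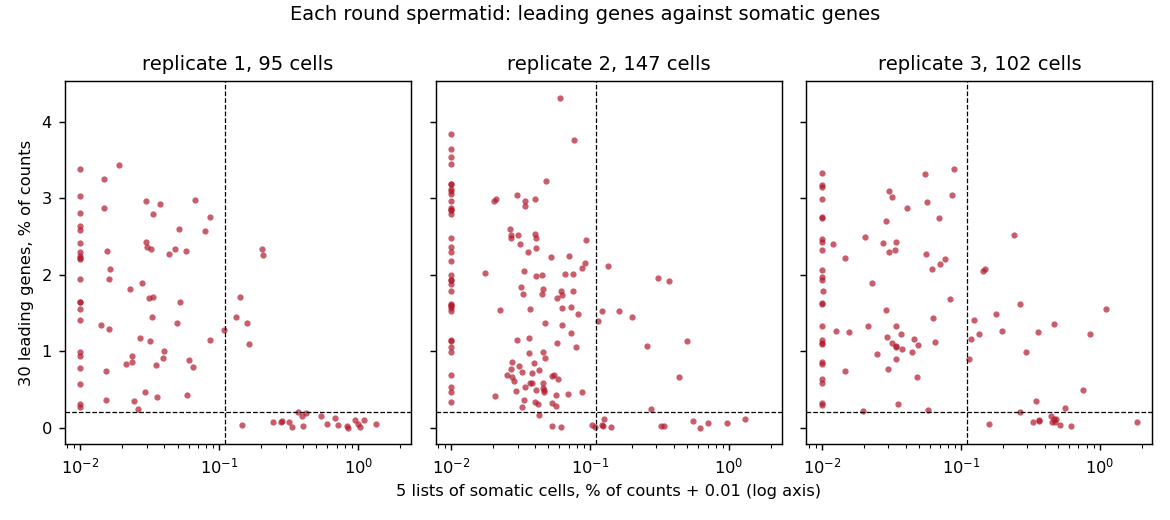
Share of counts in the 30 leading genes (vertical) against share in 5 lists of somatic genes plus 0.01 (horizontal, log axis), 1 point per selected cell and 1 panel per library; dashed lines mark 0.2% and 0.1%. The points at lower right are the 43 cells with few leading-gene counts and many somatic counts.

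Among the rule's own genes, CYP2U1, a cytochrome P450 of fatty acid metabolism, was most restricted, at 245, 288 and 391 CPM in the selected cells and 9.73, 41.6 and 23.2 CPM in the other cells. DPP4, a membrane peptidase, had 420, 449 and 702 CPM against 36.2, 77.0 and 89.2. BNC1, a zinc finger protein, had 342, 316 and 470 CPM against 43.8, 53.1 and 87.1. DGKG, a diacylglycerol kinase, had 611, 566 and 792 CPM against 91.8, 141 and 141. The selected groups stood above the others in every library for these 4 genes, as the rule required of their sets. MGLL, the lipase that cleaves monoacylglycerols, and MAP7D2, a microtubule-binding protein, separated the cells less, at 2.94 and 1.99 times the level of the other cells. MGLL was at 234, 161 and 421 CPM against 46.4, 103 and 127, and MAP7D2 at 239, 98.0 and 188 CPM against 54.6, 82.9 and 122. The separation was smallest in replicate 2 for both genes. Both were still abundant in the later cells with both sets: the selected cells had 0.723 times the MGLL and 0.413 times the MAP7D2 of the 738 cells that the late limit left out. MSMP, one of the rule's late genes, was 2.05 times as high in the selected cells as in the others, whereas PRM1, the protamine that packs sperm DNA, was at 229, 749 and 752 CPM against 7797, 17175 and 8041. Over the 12 sums of 4 cell groups in 3 libraries, the genes with levels most like MGLL were TES (Pearson r = 0.96), AGPAT1 (0.95), ARHGAP22 (0.94), KAZN (0.93) and ELOVL5 (0.92), a description over points that share libraries and cell groups chosen in part by MGLL itself.

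Against the other kept cells, 1489 of 10682 genes (13.9%) were at least 2-fold higher in each of the 3 libraries and 1758 (16.5%) at least 2-fold lower, on CPM + 1. Genes entered when their CPM, averaged over both groups of cells, reached 10. With each cell's counts rounded up, 1089 were higher and 458 lower. The rule chose the cells by counts in the same libraries, so these numbers are a description and no test was made. The 30 named genes with the largest ratio, leaving out the rule's own genes, are called leading genes here. Together they stood at 10577, 9674 and 12944 CPM in the round spermatids and 630, 1429 and 1271 CPM in the other cells. In cells gated on Leydig markers they stood at 279, 579 and 476 CPM. That gate was not free of germ cell transcripts. It held the meiotic prophase list at 2753, 839 and 578 CPM, against 2979, 3213 and 4727 CPM in spermatocyte-gated cells. The values are thus not a background without germ cells, least of all in replicate 1.

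The largest ratio among them belonged to a gamete recognition gene. TMEM95, a sperm membrane protein needed for fusion with the egg, was at 52.5, 81.2 and 65.6 CPM in round spermatids and 1.37, 5.51 and 3.68 CPM in the other cells, a 16.0-fold difference. It is annotated on chromosome 2 at 255359817 to 255362363 on the minus strand in the deposited bulk tables, for which no build is given in the sources used here. The 264 cells with few somatic counts held TMEM95 at 65.8, 88.0 and 81.4 CPM.

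The most abundant leading genes were MAGI2, a membrane scaffold protein, FAM135B and SOX6, a transcription factor. MAGI2 reached 1825, 1515 and 2352 CPM against 127, 221 and 286 in the other cells. FAM135B reached 1378, 1129 and 1535 CPM against 88.1, 142 and 133. SOX6 reached 970, 863 and 1053 CPM against 61.0, 98.5 and 126. No library of other cells came near a library of round spermatids for these 3 genes, a separation that follows from the choice of leading genes by this ratio. UNC93A, a multipass membrane protein, was at 821, 614 and 1080 CPM against 47.1, 78.3 and 97.2.

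Several leading genes are best known from other tissues. MYBPC1, the slow skeletal muscle myosin-binding protein, was at 281, 182 and 274 CPM in round spermatids and 8.97, 21.1 and 23.2 CPM in the others. MYL3, a cardiac and slow muscle myosin light chain, was at 36.6, 44.5 and 116 CPM against 1.61, 11.7 and 6.11. MYH11, the smooth muscle myosin, was lower than in the other cells, at 69.8, 31.2 and 181 CPM against 605, 313 and 510, and CD74 of immune cells was lower too, at 14.9, 0.377 and 5.01 CPM. GAP43, a growth cone protein, was at 68.3, 35.2 and 57.4 CPM against 2.84, 3.00 and 8.43. SERPINA7, which encodes thyroxine-binding globulin, was at 84.4, 91.6 and 89.0 CPM against 3.97, 16.9 and 11.4.

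**Figure D2:**
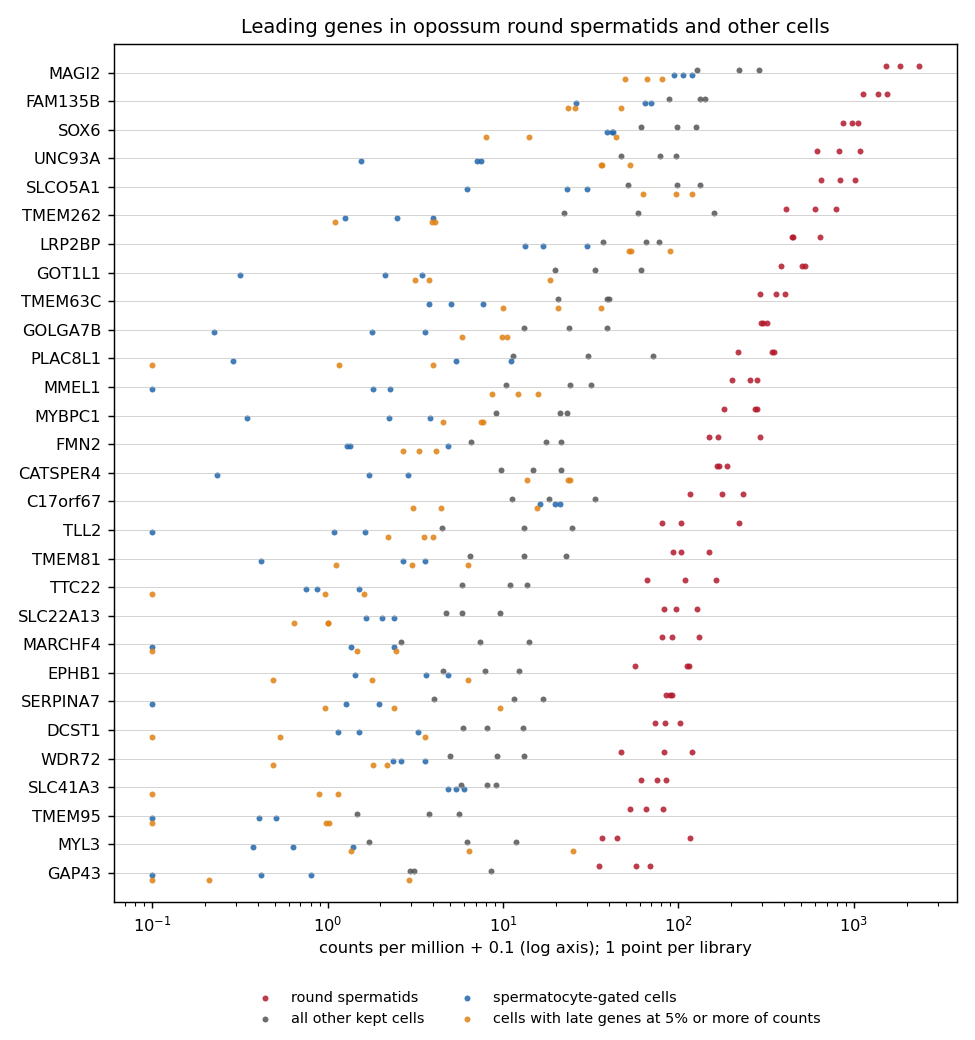
CPM plus 0.1 (log axis) of 29 of the 30 leading genes, 1 point per library, in round spermatids, all other kept cells, spermatocyte-gated cells and cells with late genes at 5% or more of counts. The round spermatid points lie to the right of the other 3 groups for each gene, from GAP43 at 35.2 to 68.3 CPM up to MAGI2 at 1515 to 2352 CPM. The genes were chosen by their ratio over all other kept cells, which include the gated groups, so this separation follows at least in part from the choice.

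The remaining leading genes ranged from 8.32-fold (WDR72) to 13.8-fold (SLC22A13) above the other cells. They included FMN2, an actin nucleator, GOT1L1, a testis relative of aspartate aminotransferase, MARCHF4, a ubiquitin ligase, MMEL1, a metallopeptidase, EPHB1, an ephrin receptor, and TLL2, an astacin metalloprotease. Beyond the named genes, 2 genes without a symbol had larger ratios than TMEM95, ENSMODG00000048177 (19.9-fold, 51.7, 97.2 and 105 CPM) and ENSMODG00000032305 (18.0-fold, 165, 175 and 236 CPM).

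Genes for sperm-egg interaction and for the calcium channel of the flagellum were high as groups. Of 8 measured sperm-egg genes, 5 were higher and 1 was lower (13.9% and 16.5% of all genes), with a median log2 ratio of 2.30 against -0.43 over all genes. TMEM81, a partner in sperm-egg recognition, was at 104, 150 and 93.6 CPM against 6.35, 22.9 and 13.2. DCST1 and DCST2, sperm membrane proteins of fertilization, were 9.11-fold and 6.09-fold higher, and PCSK4, a proprotein convertase of the acrosome, was 3.99-fold higher. CLGN, an endoplasmic reticulum chaperone for sperm surface proteins, was the most abundant, at 718, 1079 and 843 CPM, and missed the 2-fold limit. PGAP1, a remodeller of lipid anchors, was the lower gene. Of 6 measured genes of the CatSper calcium channel list, 4 were higher and 1 was lower, against the same shares of all genes. TMEM262, an auxiliary subunit, was at 408, 598 and 787 CPM against 22.1, 159 and 58.6. CATSPER4, a pore subunit, was at 171, 166 and 189 CPM against 9.61, 21.4 and 14.6. EFCAB9, the channel's calcium sensor, was 7.39-fold higher and CATSPER3 2.69-fold. SLC9C1, a sperm sodium-proton exchanger, was lower, at 17.7, 21.2 and 5.02 CPM against 74.5, 52.1 and 63.0.

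The axoneme list held the most genes that were higher. Of 33 genes for dynein arms, radial spokes, tektins and their assembly factors, 17 were higher and 0 lower (13.9% and 16.5% of all genes), with a median log2 ratio of 1.24. DNAH8, an outer arm dynein heavy chain of sperm, was at 1534, 1100 and 1463 CPM against 357, 337.3 and 367. TEKT2, a tektin inside the doublet microtubules, was at 877, 1021 and 542 CPM against 126, 259 and 119. SPAG6, a central pair protein, was 4.66-fold higher and DNAH3 4.94-fold. Against spermatocyte-gated cells 8 of the 33 were higher and 1 lower (18.3% and 28.2% of all genes), and DNAH8 had 689, 590 and 803 CPM there. Against cells with late genes at 5% or more, 28 were higher and 2 lower (background 63.8% and 9.76%). TEKT2 separated round spermatids from both, with 58.6, 90.2 and 45.1 CPM in spermatocyte-gated cells and 14.6, 7.74 and 8.83 CPM in late cells. The manchette and head-shaping list gave 5 higher and 1 lower of 24 (13.9% and 16.5% of all genes), led by IFT74, a subunit of intraflagellar transport, at 1188, 1406 and 1235 CPM against 460, 535 and 412.

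Acrosome genes were less distinct. Of 14 measured genes, 2 were higher and 1 was lower, near the 13.9% and 16.5% of all genes. SPACA1, a membrane protein of the acrosome, was at 96.2, 86.3 and 157 CPM against 6.61, 27.6 and 18.2. ZPBP, which binds the zona pellucida, was at 163, 158 and 201 CPM against 50.9, 51.7 and 68.5. SPPL2C, an intramembrane protease of spermatids, was lower, at 23.0, 6.68 and 20.9 CPM against 73.5, 108 and 117, and reached 495, 264 and 633 CPM in cells with late genes at 5% or more. The rule's limit on late genes bears on this difference. SPAM1, the sperm hyaluronidase, was at 0 in every group of opossum cells in the deposited counts.

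Some genes of later spermatids were low. The rule's limit on late genes placed cells with more late transcripts among the other cells, so this difference follows in part from the choice of cells. Of 17 chromatin genes, 1 was higher and 6 were lower (13.9% and 16.5% of all genes). TNP1, a transition protein, was at 16.0, 45.4 and 91.3 CPM against 169, 529 and 376, and TSSK3, a testis-specific kinase, at 62.1, 71.7 and 50.7 CPM against 226, 418 and 166. HMGB4, a high-mobility-group protein, was already at 1138, 1668 and 1550 CPM and stood at 9919, 6841 and 11579 CPM in the late cells. TSSK4 was the exception, at 41.9, 46.8 and 46.3 CPM against 6.21, 21.5 and 17.5. Of 11 genes of the outer dense fibres and fibrous sheath, 0 were higher and 2 were lower, OAZ3 and GSTM3, and the lower share is near the 16.5% of all genes. OAZ3, an ornithine decarboxylase antizyme of spermatids, was at 15.8, 20.2 and 42.2 CPM against 198, 371 and 227. GSTM3 stood at 701, 631 and 294 CPM in all selected cells but 0, 171 and 107 CPM in those with few somatic counts, and at 4079, 8159 and 5473 CPM in Leydig-gated cells.

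Regulators and metabolic genes gave shorter lists. Of 17 measured genes on the transcription regulator list, 4 were higher and 0 lower (13.9% and 16.5% of all genes). The 4 include PROM1, which is not a transcription regulator. RFX3, a factor of ciliogenesis, was at 595, 411 and 777 CPM against 79.4, 102 and 139. TAF4B, a germ cell subunit of the TFIID complex, was at 427, 284 and 544 CPM against 74.8, 84.6 and 125. RFX1 was 2.58-fold and PROM1, a membrane glycoprotein on that list, 5.34-fold higher. Of 16 energy genes, 2 were higher and 3 lower, near the shares of all genes (13.9% and 16.5%). HK1, a hexokinase, was at 266, 257 and 302 CPM against 54.2, 52.9 and 44.3, and SLC16A3, a lactate transporter, was 4.52-fold higher. AKR1B1, LDHB and SLC16A1 were lower. LDHC, the germ cell lactate dehydrogenase, was the most abundant of the list, at 582, 993 and 314 CPM against 313, 363 and 250.

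Transcripts of earlier stages were lower for some genes and comparisons only. Against 1805 spermatocyte-gated cells, 2017 of 11002 genes (18.3%) were higher in round spermatids and 3106 (28.2%) lower, and with counts rounded up 1591 were higher and 1138 lower. The meiotic prophase list had 2 of 25 higher and 11 lower, a list that shares 8 genes with that gate, SYCP1 and SMC1B among them. Against all other kept cells 2 of 21 were higher and 3 lower, near the 13.9% and 16.5% of all genes. The list summed to 2495, 2837 and 2297 CPM in the selected cells against 1981, 1939 and 1960 in those other cells. SYCP1, the transverse filament of the synaptonemal complex, was at 64.9, 78.7 and 48.2 CPM against 417, 531 and 965 in the gated cells. SMC1B, a meiotic cohesin, remained at 868, 824 and 767 CPM against 771, 729 and 1137. REC8, another meiotic cohesin, and TRIP13, an ATPase of meiotic chromosomes, were higher than in both the gated cells and all other cells; REC8 was at 50.8, 34.4 and 29.6 CPM against 4.98, 8.02 and 6.82 in the gated cells. The chromatoid body list gave 0 higher and 5 lower of 23 against all other cells, where 13.9% of all genes were higher and 16.5% lower. Its sum was not lower, at 2771, 2954 and 3298 CPM against 2579, 2632 and 2941. RNF17, TDRD5, TDRD1, PIWIL1 and BOLL, germ granule and germ cell RNA regulators, were the lower genes, and PIWIL1 was at 58.9, 26.4 and 22.3 CPM against 126, 105 and 110. MAEL, also of the germ granule, was at 369, 458 and 584 CPM against 110, 233 and 303, and missed the 2-fold limit.

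Against 9623 cells with the late genes at 0.5% or more, 1664 of 9694 genes (17.2%) were higher and 773 (7.97%) lower, and 28 of the 30 leading genes were higher. Against the 738 cells with both positive sets and late genes at the limit or more, 4002 of 8375 genes (47.8%) were higher and 987 (11.8%) lower. Of the leading genes, 25 were higher there, and MYBPC1 and TMEM95 kept ratios of 7.08 and 18.6. The leading genes were chosen by their ratio over all other kept cells, which include these later cells. The counts of 28 and 25 thus repeat that choice in part. With late genes at 5% or more (508 cells), 5152 of 8074 genes (63.8%) were higher and 788 lower.

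**Figure D3:**
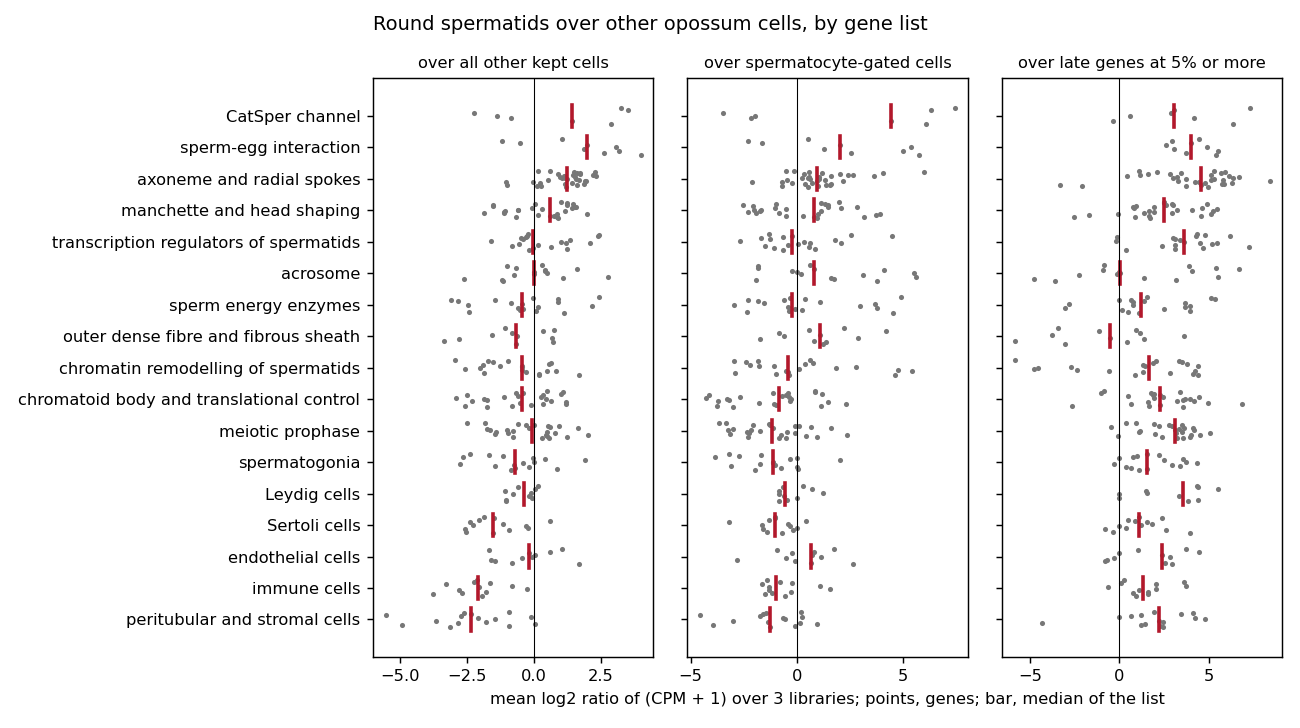
Mean log2 ratio of CPM + 1 over 3 libraries for each gene (points) and its list median (bar), for round spermatids over all other kept cells, over spermatocyte-gated cells and over cells with late genes at 5% or more of counts. The CatSper, sperm-egg and axoneme medians lie right of 0 in each panel, and the peritubular and stromal median lies left of 0 in the first 2. Over all tested genes the median was -0.43, -0.71 and 2.87 in the 3 panels, so 0 is not the level of all genes in the third. The CatSper median there (3.08) is near that of all genes, and the endothelial, immune, and peritubular and stromal medians also lie right of 0.

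Peritubular, immune and Sertoli markers were lower than in all other kept cells, a pool that also holds somatic cells. Of 12 peritubular and stromal genes, 8 were lower (16.5% of all genes), among them DCN, a matrix proteoglycan (1.31, 0.586 and 8.32 CPM against 185, 93.7 and 197). Of 6 immune genes 5 were lower, and of 6 Sertoli genes 3. Against the 738 later cells with both sets, the sums of these lists were higher in the selected cells in every library. The immune list summed to 123, 80.6 and 85.3 CPM against 1.42, 15.1 and 3.35, and the Sertoli list to 150, 113 and 98.1 against 3.87, 29.6 and 14.2. The peritubular and stromal list summed to 301, 109 and 395 CPM against 72.3, 89.3 and 79.9. The Leydig and endothelial sums were also higher than in those later cells in every library. The Leydig list stood at 475, 382 and 379 CPM against 9.75, 97.0 and 26.8, and the endothelial list at 363, 53.0 and 37.0 against 32.2, 8.85 and 9.40. SOX9, a defining Sertoli factor, CYBB of phagocytes and CLDN5 of endothelium were at 0. CLDN5 was scarce in the other cells too: at 0 CPM in the 264 cells with few somatic counts, its ratio on CPM + 1 was 0.740. Its 0 thus says little about endothelial RNA. Of 6 Leydig and 4 endothelial genes none was called, with 0 higher and 0 lower. The endothelial list summed to 363, 53.0 and 37.0 CPM in the selected cells against 82.9, 45.9 and 136 in the others, and the Leydig list to 475, 382 and 379 CPM against 360, 694 and 978. The endothelial sum was thus higher in replicates 1 and 2 and the Leydig sum in replicate 1. FLT1 was at 204, 26.0 and 10.2 CPM in all selected cells and 1.92, 0 and 0 CPM in those with few somatic counts, which were kept for low counts of such genes. With only those 264 cells, 1745 genes were higher and 3077 lower than in the other cells, 1461 of the higher genes were shared with all selected cells, and all 30 leading genes were higher. The leading genes were chosen in sums that include these 264 cells, so that last count repeats the choice in part.

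X-linked transcripts took a small share. The share of counts from the X was 1.16%, 1.05% and 1.00% in round spermatids (mean 1.07% ± 0.0822, SD, n = 3) and 3.58%, 2.91% and 1.96% in all other cells. It was 2.41%, 2.05% and 1.03% in spermatocyte-gated cells and 4.74%, 5.39% and 3.68% in cells with late genes at 5% or more. The 738 later cells with both sets had 2.06%, 1.09% and 1.24%. Round spermatids had the lowest value of these 5 groups in each library, but by little in replicate 2 (1.05% against 1.09%) and replicate 3 (1.00% against 1.03%). Without the 2 most abundant X-linked genes the order changed in replicate 2, with 1.02% in round spermatids and 0.918% in the later cells with both sets, and cells with late genes at 5% or more had 2.77%, 2.63% and 1.89%. With few somatic counts the share was 0.731%, 0.793% and 0.797%. Of 235 X-linked genes 83 (35.3%) were lower than in the other cells and 31 (13.2%) higher, against 1675 (16.0%) and 1458 (14.0%) of 10447 other genes. The cell groups came from the same 3 libraries, too few for an exact permutation test to reach a small p-value, and none was made. IKBKG, a regulator of NF-kappa-B, was an X-linked gene higher in round spermatids, at 63.8, 49.9 and 77.2 CPM against 18.0, 16.4 and 15.1. AKAP4, the X-linked anchor protein of the fibrous sheath, was at 191, 221 and 256 CPM and reached 3280, 2717 and 1616 CPM in the late cells.

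The bulk libraries were not used to choose the cells, and they cover the leading genes by age. The leading genes were low in their median at 1 and 2 months and higher from 3 months, though not each gene followed this. EPHB1 and WDR72, given below, fell between 1 month and adult. The median level of the leading genes, as log2 of TPM plus 1 (TPM is a length-corrected share of a library's transcripts), was 0.33 and 0.30 at 1 month, 0.27, 1.38, 0.86 and 0.31 at 2 months, 4.30, 4.18, 4.31 and 3.60 at 3 months, and 2.67, 3.48 and 3.34 at 4 months. In adults it ran from 1.66 through a median of 3.77 to 4.47. The 3-month libraries did not overlap those of 1 and 2 months. Over all 19300 genes tested the mean of the library medians also moved, from 1.96 at 1 month to 3.51 at 3 months. In bulk tissue, fewer cells of a type and less RNA per cell cannot be told apart.

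Between 2 and 3 months, 2863 genes (14.8%) rose and 1551 (8.04%) fell by limma at a Benjamini-Hochberg adjusted p below 0.05 and a 2-fold limit. Of the 28 leading genes tested, 24 rose and 0 fell, with a median log2 difference of 2.99 against 0.24 for all genes. TMEM81 moved most, from 0, 9.44, 5.24 and 0 TPM at 2 months to 81.4, 72.8, 84.5 and 71.9 TPM (log2 difference 5.26 ± 0.98 SE, limma adjusted p = 0.0021). TMEM95 went from 0, 0.34, 0.20 and 0 TPM to 5.36, 4.59, 5.22 and 3.52 TPM (2.39 ± 0.53, limma adjusted p = 0.0054). MYBPC1 went from 0, 0.40, 0.32 and 0.03 TPM to 10.4, 10.0, 12.2 and 6.01 TPM (3.24 ± 0.68, limma adjusted p = 0.0040). The 2 ages did not overlap for these 3 genes. At 2 months, replicate 1 was a polyA library and replicates 2 to 4 were depleted of ribosomal RNA, with 31.0% to 42.6% of their TPM in signal recognition particle RNA genes. Without the polyA replicate 1, the calls over all genes dropped from 4414 to 120 and those of leading genes from 24 to 0, while the leading genes' median difference was 2.49.

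From 1 to 2 months, 1367 genes (7.08%) rose and 741 (3.84%) fell by limma. Of the leading genes 1 rose and 1 fell. TMEM262 rose from 0.50 and 0.53 TPM to 8.15, 9.16, 6.83 and 2.56 TPM, and EPHB1 fell from 3.90 and 4.84 TPM to 0.39, 0.24, 0.26 and 0.40 TPM. TMEM262 thus had a rise before 3 months that the test did not call for the other leading genes. Without 1-month replicate 1 or 2, or 2-month replicate 1, 2 or 3, the leading genes that rose numbered 0, as they did with deposited FPKM and with polyA libraries only, and 2 without 2-month replicate 4. The calls over all genes (2108) were 575, 563, 987, 1852 and 1764 without those 5 libraries in that order and 2596 with FPKM. From 3 months to adult, 301 genes (1.56%) rose and 331 (1.72%) fell, and of the leading genes 0 rose and 1, SLC22A13, fell (-1.17 ± 0.28, limma adjusted p = 0.030). In place of 632 calls, 126, 214, 311 and 195 were made without 3-month replicates 1 to 4 and 275 and 361 without adult replicates 4 and 7, and 1025 were made without adult replicate 3. Between 1 month and adult, 5646 genes (29.3%) rose and 2964 (15.4%) fell, and of the leading genes 24 rose and 2 fell. Without 1-month replicate 1 or 2 the calls over all genes were 5459 and 5387 in place of 8610, and 23 leading genes rose. TMEM262 moved most (5.31 ± 0.56, limma adjusted p = 1e-06). The 2 that fell were WDR72, from 9.00 and 6.20 TPM at 1 month (-1.49 ± 0.42, limma adjusted p = 0.0080), and EPHB1 (-1.60 ± 0.26, limma adjusted p = 7.6e-05). WDR72 was not called with a pseudocount of 0.1 TPM (-1.87, limma adjusted p = 0.072) or with the replicate block (-1.47, limma adjusted p = 0.059). Nor was it called without 1-month replicate 1, which leaves 1 library at that age (-1.26). C17orf67 moved least (0.44 ± 0.39, limma adjusted p = 0.35).

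**Figure D4:**
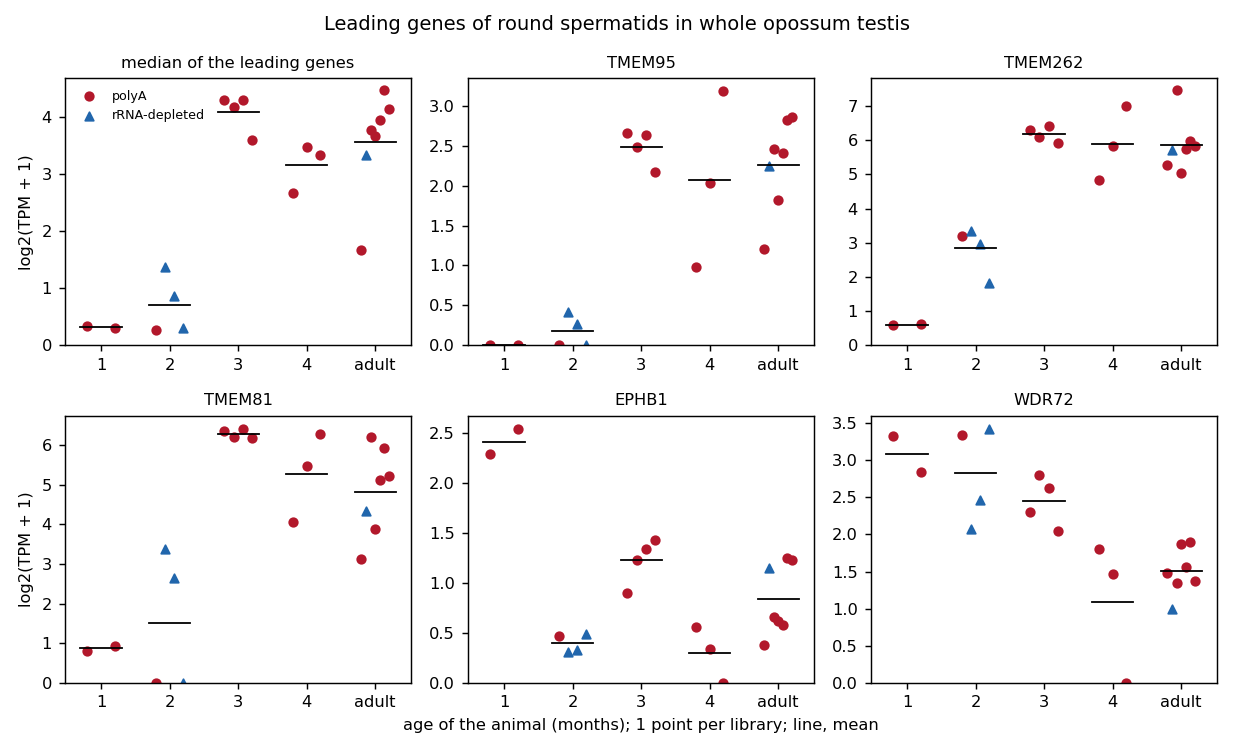
log2(TPM + 1) in whole opossum testis by age, 1 point per library (circles polyA, triangles rRNA-depleted) with the mean as a line, for the median of the leading genes and for TMEM95, TMEM262, TMEM81, EPHB1 and WDR72. The median lies between 0.27 and 1.38 up to 2 months and between 3.60 and 4.31 at 3 months, whereas EPHB1 and WDR72 are highest at 1 month or 2 months.

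The other lists moved with age to different degrees. Between 2 and 3 months 32 of 33 axoneme genes, 7 of 8 sperm-egg genes, 6 of 7 CatSper genes, 9 of 13 acrosome genes and 8 of 11 sheath genes rose, against 14.8% of all genes. Without 2-month replicate 1, the calls over all genes were 120 in place of 4414. Of 25 meiotic prophase genes, 8 had risen and 1 had fallen between 1 and 2 months (7.08% and 3.84% of all genes), and 7 rose and 2 fell between 2 and 3 months. Of 10 Leydig, 12 Sertoli, 11 endothelial and 12 immune genes, 0 were called between 2 and 3 months by limma at an adjusted p below 0.05. At an unadjusted limma p below 0.05 there were 2, 3, 0 and 2 genes. Of 15 peritubular and stromal genes 1 rose and 1 fell. Of all genes 14.8% rose and 8.04% fell. The genes that were higher in round spermatids than in other cells had 629 of 1213 (51.9%) rise and 8 fall between 2 and 3 months.

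The opossum cells were then set beside mouse cells gated with mouse acrosome genes (Acrv1, Spaca1 and Spaca7 at 3 counts or more, protamine and transition protein genes below 2% of counts). The mouse gate held 1119, 1952 and 1895 cells with median counts of 16960, 8365 and 6782. Of 10750 genes matched by symbol, 8039 were tested by edgeR, of which 2503 (31.1%) were higher in opossum and 2949 (36.7%) lower, with a median log2 difference of -0.26. The scaling matters here: with library totals alone 3524 were higher and 1873 lower, and the median was 0.90. Species, depth, gate, annotation and library cannot be told apart in this comparison, and the leading genes were chosen for their level in these opossum cells.

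Of 29 leading genes tested, 18 were higher in opossum and 3 lower (median 3.34), against 31.1% and 36.7% of all genes. With few somatic counts these were 22 and 0, against 27.1% and 39% of all genes. With library totals alone they were 23 and 0, against 43.8% and 23.3%. Their choice at 50 CPM or more in the opossum cells favours the higher side. In the mouse libraries 9 of the 29 stayed under 10 CPM. UNC93A was at 933, 851 and 1237 CPM (scaled by the trimmed mean of M values, as are all CPM of this comparison) in opossum and 0.2, 0.3 and 1.6 CPM in mouse (log2 difference 10.62 ± 0.74 SE, edgeR adjusted p = 1.2e-06). MYBPC1 was at 319, 252 and 312 CPM against 0.6, 1.3 and 2.8 (7.59 ± 0.62, edgeR adjusted p = 2.1e-06). MAGI2 was abundant in opossum at 2074, 2100 and 2692 CPM and present in mouse at 196, 202 and 246 CPM (3.42 ± 0.37, edgeR adjusted p = 1e-05).

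Of 9 sperm-egg genes tested, 0 were higher in opossum and 3 lower (median -0.77), and of 6 CatSper genes 0 were higher and 4 lower (median -1.80), where 31.1% of all genes were higher and 36.7% lower. With library totals alone these were 1 and 1 with the median turned to 0.43, and 1 and 2 with a median of -0.62. TMEM95 was at 60.2, 112 and 75.8 CPM in opossum and 257, 186 and 114 CPM in mouse (-1.16 ± 0.45, edgeR adjusted p = 0.036, and 0.03 with library totals alone). TMEM81 was at 118, 207 and 106 CPM against 91.6, 51.9 and 229 (0.22 ± 0.54, edgeR adjusted p = 0.74), and MMEL1, a leading gene on neither list, at 289, 282 and 321 CPM against 391, 263 and 322 (-0.13, or 1.07 with library totals alone). CATSPER4 at 194, 231 and 215 CPM against 397, 268 and 513 did not pass (-0.88, edgeR adjusted p = 0.053). It passed in 4 alternatives, without mouse replicate 2 (-1.21, edgeR adjusted p = 0.022), without a filter on low counts, with counts rounded up and with opossum cells of any late share, and it was 0.28 with library totals alone. DCST1 (-0.77, edgeR adjusted p = 0.10) likewise passed in 4, without mouse replicate 3 (-1.18, edgeR adjusted p = 0.0066) and in the same other 3, and it was 0.43 with library totals alone. The 3 leading genes called lower were TMEM95, PLAC8L1 and SLC41A3, and none of them passed with library totals alone, with few somatic counts or without opossum replicate 1 (edgeR adjusted p = 0.16, 0.072 and 0.056 in that last fit). TMEM95 also missed the threshold without opossum replicate 3 or mouse replicate 1 (edgeR adjusted p = 0.073 and 0.11).

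**Figure D5:**
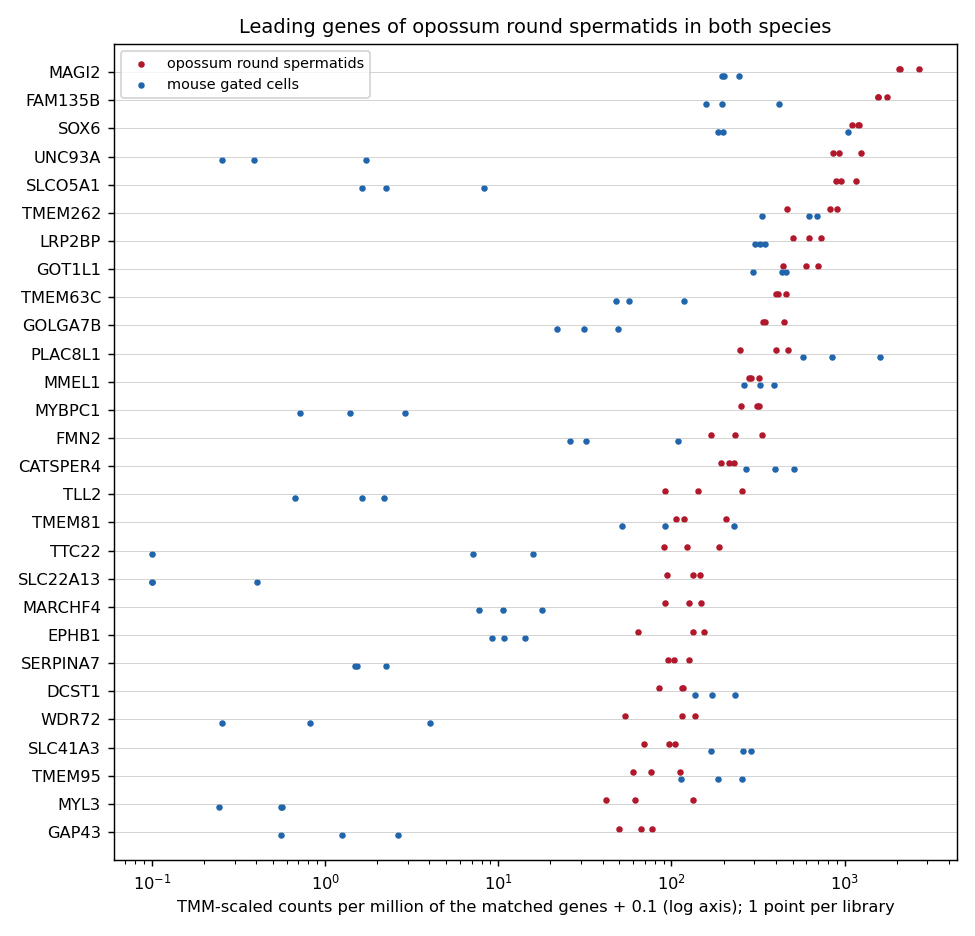
TMM-scaled CPM plus 0.1 (log axis) of 28 of the 29 leading genes matched between species, 1 point per library, in opossum round spermatids and in mouse gated cells. UNC93A, SLCO5A1, MYBPC1, MYL3, SLC22A13, GAP43, SERPINA7, TLL2 and WDR72 lie under 10 CPM in the mouse libraries, while MMEL1, TMEM81, TMEM262 and GOT1L1 overlap between species.

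Acrosome genes were lower in the opossum cells as a list, with 1 of 14 higher and 12 lower (31.1% and 36.7% of all genes, median -2.99), and 2 and 10 with library totals alone. The mouse cells were gated on acrosome genes and the opossum cells were not, so species and gate cannot be told apart for this list, also with the gate's own 3 genes left out of the calls. ZPBP was at 186, 219 and 230 CPM against 2379, 2503 and 1696 in mouse (-3.37 ± 0.38, edgeR adjusted p = 1.3e-05). SPAM1 was at 0 in opossum and 419, 330 and 628 CPM in mouse, at least 282-fold lower on a floor of 3 counts over the group (1.63 CPM). This bound holds under TMM scaling and was not computed with library totals alone. The energy list had 4 of 16 higher and 10 lower, and 5 and 8 with library totals alone. LDHC was at 661, 1377 and 358 CPM against 28452, 27194 and 14998 (-4.88 ± 0.58, edgeR adjusted p = 1.9e-05).

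Single list genes differed between species in both directions. SLC16A7, a monocarboxylate transporter, was at 0 in opossum and 1339, 1126 and 1602 CPM in mouse, at least 833-fold lower under TMM scaling. SLC16A3 was at 41.9, 40.0 and 33.3 CPM in opossum and 1.1, 1.0 and 3.0 CPM in mouse (4.53 ± 0.67, edgeR adjusted p = 8.8e-05). CPT1B, the muscle form of carnitine palmitoyltransferase, was at 361, 688 and 327 CPM against 0.8, 0.9 and 2.8 (8.34 ± 0.67, edgeR adjusted p = 1.9e-06). CRAT, carnitine acetyltransferase, had 2 counts over the selected opossum cells and was 1015 times as high in mouse (interval 281 to 8383, counting error only). PLK1, a mitotic kinase, had 1 count and was 1041 times as high in mouse (187 to 41122). HK2, a hexokinase, was higher in opossum, at 139, 105 and 200 CPM against 0.8, 1.0 and 2.5 (6.70 ± 0.64, edgeR adjusted p = 4.7e-06). RFX4, a regulatory factor X family member, was at 0 in opossum and at least 152-fold lower than in mouse under TMM scaling. The fold values and bounds of these genes rest on that scaling. Library totals alone move the median over all genes from -0.26 to 0.90 and would make the folds of genes lower in opossum smaller.

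For 3 other list genes, the cells with few somatic counts were also examined, where the gene was tested in them. GSTM3, at 797, 875 and 336.5 CPM against 0.2, 0.1 and 0.5 (11.30 ± 0.71, edgeR adjusted p = 1.1e-06), was not tested among cells with few somatic counts. STAR, with a log2 difference of 6.81 ± 0.64 (edgeR adjusted p = 4.2e-06), was at 4.72 there (edgeR adjusted p = 0.00046), where the choice of cells itself lowers it. LAPTM5, a lysosomal protein of blood cells, was at 6.70 in all selected cells and 6.57 in those with few somatic counts. The part of free RNA in these values was not tested.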

How the data were processed

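Single-cell libraries were made from whole dissociated testis with a Chromium 3′ kit, per the labels' protocols. The tools used upstream were Cell Ranger 6.0.1, HISAT2 2.2.1, SAMtools 1.12 and StringTie 2.1.4, per the submitters' processing notes, which are used here without the role of each. The deposited matrices hold fractional estimated counts per gene and cell; how the authors made them fractional is not given in the sources used here. The deposited bulk tables hold coverage (signal), FPKM and TPM per gene, and coverage was not analysed. The opossum build is named in the labels (ASM229v1) for single-cell replicate 3 only.

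Counts were summed per library and cell group, and genes were compared on CPM + 1. Summed counts were rounded for edgeR 4.0.16 (quasi-likelihood, TMM, filterByExpr). Bulk log2(TPM + 1) was fitted with limma 3.58.1 (trend, robust) over all 20 libraries, with library kind as covariate, for genes at 1 TPM or more in at least 2 libraries. Calls needed a Benjamini-Hochberg adjusted p below 0.05 and a 2-fold difference. Opossum and mouse genes were matched by symbol where it occurs once in each; the rule's genes and the mouse gate genes (14 in all) stayed out of the calls. Spermatocyte-gated cells had at least 3 counts of meiotic genes, few late genes and neither positive set; Leydig-gated cells had at least 3 counts of steroidogenic genes.

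Doublets were scored with scanpy 1.11.5 and left in. Named genes were the 12 of the rule, the 30 leading genes (at least 50 CPM), of each list up to 4 with the highest level, the members with the largest and the smallest ratio and those at 0, the 5 list genes with the largest and the 5 with the smallest species difference, and the leading genes that moved most and least in bulk; 1 leading gene is counted but not reported here, and other names in the text were chosen after their values were seen. Cells, lists and rules were chosen with earlier results of these data known. Scripts were tested on simulated data. Same-numbered samples did not deviate together in every pair (species r of -0.01, 0.18 and 0.16; bulk median 0.00 over 29 pairs), so the numbers were not treated as pairing.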

Additional observations from a re-analysis of the deposited data

Results flagged for a closer look

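Of 24 groups of bulk values examined, 2 had a sample far from the others, where chance gives about 1 in 20. The median of the leading genes in adult replicate 1 was 1.66 on the log2(TPM + 1) scale, the lowest adult value by a wide gap. The same library was also the lowest adult over all genes tested (2.07, next 2.62) and over all genes higher in round spermatids (1.98, next 3.23). TMEM262 in adult replicate 3 was 7.47 on the same scale (176 TPM), the highest adult value by a wide gap.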

How the results depend on the processing

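The share of selected cells was 1.59% and became 0.952% with a minimum of 500 counts, 2.91% with 2000, 0.789% with 2.5 counts per set, 1.01% and 2.64% with the late limit at 0.25% and 1%, 0.289% after thinning to 1000 counts, and 1.21% with few somatic counts. Genes higher than in other, spermatocyte-gated and elongation-gated cells numbered 747, 1004 and 791 with a minimum of 50 CPM, where fewer genes are tested; with at least 2000 counts per cell 3117 were higher than in elongation-gated cells. Against the later cells with both sets and the cells with late genes at 5% the counts were 4002 and 5152. With counts rounded up, 458, 1138 and 479 genes were lower than in other, spermatocyte-gated and elongation-gated cells; the cause was not tested.

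Bulk calls from 1 to 2 months (2108) became 5154 without the library-kind term, 1034 in polyA libraries only and 985 with the replicate block, and 563 to 2228 without 1 library. From 2 to 3 months (4414) they became 2716 with the replicate block and 120 to 4672 without 1 library. Without the library-kind term 4418 rose and 686 fell, and with deposited FPKM 2538 and 2512. From 3 months to adult (632) they became 329 with a pseudocount of 0.1 TPM and 126 to 1025 without 1 library. From 1 month to adult (8610) they became 5387 to 9901 without 1 library. A lone 1-month library, and the lone polyA library of 2 months in the polyA-only fit, was assumed to vary like the other groups. The replicate block gave 920 calls from 3 months to adult, 6113 from 1 month to adult and 5517 between species; it rests on shared numbers only. Between species the calls (5452) stayed within 1.5 times under all 17 alternatives, 4268 to 5300 without 1 library; with DESeq2 they were 5552. Under library totals MMEL1 was 1.07 and TMEM95 0.033 (log2 differences, -0.13 and -1.16 as reported).

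The X-linked share was 1.30% with counts rounded up and 0.774% with few somatic counts. The 3-month minus 2-month level of the leading genes (3.39) was 2.55 over all higher genes and 2.49 with FPKM. Library totals, few somatic counts, later cells, any late share, opossum doublet scores removed between species (5307 calls) and the library left out of the age level were alternatives chosen after seeing the data. The promoter motif alternative was not run. Depth limits the shallowest opossum sum to 206693 counts in matched genes.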
